A study of Mus musculus with 9 samples.

Results

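The 10 genes described here are the Serpina1 paralogs Serpina1a, Serpina1b, Serpina1c, Serpina1d and Serpina1e, the Serpina3 paralogs Serpina3g, Serpina3k, Serpina3m and Serpina3n, and the pseudogene Serpina4-ps1. They were taken by name from a table of 56748 genes, in which 29 genes carry a Serpina name, and they were selected on their counts and fold differences in these same libraries, seen in earlier work on the data, so their differences are given as values without a test. Expression was measured by bulk RNA sequencing of liver from C57BL/6J mice, bought at 7 to 8 weeks of age, in 3 groups of 3 libraries. The DSS mice had 3 cycles of 1.8% dextran sulfate sodium (DSS), an irritant of the colon lining, in their drinking water, each cycle followed by recovery. The Indirubin mice had the same DSS cycles and 1 g/kg/day of indirubin, a poorly soluble red dye from indigo-bearing plants, by mouth in sterile water. The Control mice are labelled only as given water, which they took by mouth each day. GEO's design text and the study's methods both describe the induction of colitis by DSS before they list the groups, with the water-treated control among them, and the labels of the Control libraries name no DSS, so what these mice had besides water is uncertain. By the labels, the comparison of DSS with Control sets DSS-treated against water-treated mice, and the comparison of Indirubin with DSS addresses what a high dose of indirubin adds to DSS.

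Serpins are protease inhibitors that offer an exposed loop as bait, are cut by the target protease, and trap it in a covalent complex. The Serpina1 genes encode mouse forms of alpha-1-antitrypsin, a plasma protein that hepatocytes secrete in large amounts. Alpha-1-antitrypsin is known as an inhibitor of neutrophil elastase. Mice carry several copies where humans have a single gene. The copies differ in the bases of the loop, and what each one inhibits was not measured. The Serpina3 genes correspond to human alpha-1-antichymotrypsin, also an acute-phase plasma protein, and have likewise multiplied in the mouse. Serpina3k, also called contrapsin, is an abundant secreted inhibitor of mouse liver. Serpina3n inhibits granzyme B and leukocyte elastase and is a known acute-phase gene. Serpina3g is an intracellular member best known from T cells, and Serpina4-ps1 is annotated as an unprocessed pseudogene, a duplicated gene copy that does not make a full protein.

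All 10 genes lie in one cluster on chromosome 12, where 28 of the 29 Serpina genes in the table fall between bases 103581045 and 104380588 of GRCm39. The Serpina1 genes are on the minus strand, with Serpina1b at 103694415 to 103796632, Serpina1d at 103729853 to 103739851, Serpina1a at 103819848 to 103829821, Serpina1c at 103861185 to 103871146 and Serpina1e at 103913190 to 103925234. The other genes are on the plus strand. Serpina4-ps1 is at 104046908 to 104052983, Serpina3g at 104202504 to 104208198, Serpina3k at 104304745 to 104312403, Serpina3m at 104304745 to 104360516 and Serpina3n at 104372988 to 104380588. The annotated span of Serpina1b holds all 9999 bases of Serpina1d, and the span of Serpina3m holds all 7659 bases of Serpina3k. These are whole spans, introns included, and whether exons or reads of these pairs overlap was not checked.

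The loop is the part of a serpin that meets the protease, so the coding sequence of that loop is shown first. It was located by the conserved hinge of the loop in the longest coding transcript of each gene in GENCODE M21, and 81 bases of each Serpina1 gene are given 5' to 3'. Capitals mark the bases that differ from Serpina1a. The counts of differing bases were 6 in Serpina1b, 10 in Serpina1c, 9 in Serpina1d and 12 in Serpina1e.
Serpina1a: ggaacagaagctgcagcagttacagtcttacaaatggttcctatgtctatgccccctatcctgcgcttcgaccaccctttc
Serpina1b: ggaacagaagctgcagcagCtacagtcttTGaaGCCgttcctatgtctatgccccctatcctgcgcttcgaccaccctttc
Serpina1c: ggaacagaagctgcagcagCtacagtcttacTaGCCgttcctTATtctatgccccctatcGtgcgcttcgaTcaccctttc
Serpina1d: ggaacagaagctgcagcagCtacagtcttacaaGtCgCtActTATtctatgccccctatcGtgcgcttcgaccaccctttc
Serpina1e: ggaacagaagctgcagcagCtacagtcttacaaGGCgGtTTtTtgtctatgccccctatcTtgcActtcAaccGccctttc

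The same stretch has 90 bases in Serpina3m, Serpina3n and Serpina3g, where capitals mark bases that differ from Serpina3m, and 84 bases in Serpina3k, which is shown in lower case because its length differs. Serpina3n differed from Serpina3m at 28 of the 90 bases and Serpina3g at 35.
Serpina3m: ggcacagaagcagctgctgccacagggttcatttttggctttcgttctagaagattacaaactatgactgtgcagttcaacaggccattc
Serpina3n: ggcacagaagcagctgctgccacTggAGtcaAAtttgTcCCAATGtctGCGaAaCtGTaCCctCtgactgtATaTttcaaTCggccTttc
Serpina3g: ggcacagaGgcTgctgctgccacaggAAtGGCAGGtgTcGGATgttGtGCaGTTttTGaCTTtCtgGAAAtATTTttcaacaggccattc
Serpina3k: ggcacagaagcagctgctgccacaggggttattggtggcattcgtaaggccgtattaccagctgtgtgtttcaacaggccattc

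Over whole coding sequences, loop included, the 10 pairs of Serpina1 genes were 91.4% to 96.7% identical. The Serpina3 genes were less alike, at 91.0% for Serpina3k with Serpina3m, 85.2% for Serpina3m with Serpina3n and 82.7% for Serpina3k with Serpina3n. Serpina3g was 39.0% to 41.1% identical to the other Serpina3 genes over alignments that include the part it lacks, since its longest coding transcript has 744 bases against 1254 in the others. A read can be placed on one copy only where that copy has a sequence of its own, so the share of 100-base stretches of each gene's transcripts that occur in no other Serpina gene was counted. It was 41.5% for Serpina1c, 59.2% for Serpina1a, 73.7% for Serpina1d, 85.6% for Serpina1e and 86.2% for Serpina1b. Serpina1c shared 58.0% of its stretches with Serpina1a. For Serpina3k, Serpina3m, Serpina3g and Serpina3n the share was 95.1%, 93.9%, 96.5% and 99.8%, and it was 100% for Serpina4-ps1. How the counting treated reads that fit several copies is not given in the sources used here, so single Serpina1 values are uncertain. The summed count of the 5 genes is given beside them. The sum does not depend on how reads were divided among the copies, but it would lack any such reads that were left uncounted.

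In the RefSeq promoter table (GRCm38.p6), 7 of the 10 genes have an entry of 300 bases. Over the bases that overlap in their entries, the 10 pairs of Serpina1 promoters were 91.4% to 97.6% identical. The Serpina3n promoter is shown because this gene had the widest range of levels among the genes with counts in every library. Its entry holds 1 match to the glucocorticoid receptor pattern, GNACA and TGTNC with 3 free bases between them, marked in capitals in the 250 bases before its start at chr12:104406458-104406707 on the plus strand. That pattern, searched on both strands, occurs in 0.475% of the 32851 promoter entries.
Serpina3n: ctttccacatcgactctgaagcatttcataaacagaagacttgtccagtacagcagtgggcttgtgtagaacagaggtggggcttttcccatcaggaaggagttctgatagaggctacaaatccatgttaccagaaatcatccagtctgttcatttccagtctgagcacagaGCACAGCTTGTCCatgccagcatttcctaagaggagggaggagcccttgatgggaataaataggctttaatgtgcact

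A match to STAT (TTCNNNGAA, in 8.30% of entries) was found in Serpina3g and in none of the other 6 entries. A match to C/EBP (TTNNGCAA, in 10.8%) was found in Serpina1a, Serpina1b, Serpina1d and Serpina1e, and a match to the aryl hydrocarbon receptor core (GCGTG, in 32.4%) in none of the 7. Both strands were searched, and no 2 of these matches overlapped. These matches describe the letters of the windows and say nothing about binding.

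The libraries held 6514863 to 7944684 counts, of which mitochondrial genes took 71.6% to 91.3%, leaving 569044 to 2132208 counts on nuclear genes. The mitochondrial share was 87.5% to 91.3% in Control, 72.4% to 87.7% in DSS and 71.6% to 89.5% in Indirubin. Within DSS it was 85.8% in DSS-1, 87.7% in DSS-2 and 72.4% in DSS-3. Levels are therefore given as normalized CPM, in which each count is divided by an effective library size set by the trimmed mean of M-values (TMM). All 8 hepatocyte markers checked were detected in every library. Indirubin-1 stood apart from the other Indirubin libraries. Its mitochondrial share was 89.5%, against 71.6% in Indirubin-2 and 77.2% in Indirubin-3. Its counts on nuclear genes were 701804, against 1910420 and 1771035. It had 1 count over 8 pancreatic acinar markers, where Indirubin-2 had 12346 and Indirubin-3 had 9824, the Control libraries had 0 to 38 and the DSS libraries had 0 for all 8 markers. Its summed level of 7 neutrophil markers was 27.1 normalized CPM, against 240.3 in Indirubin-2 and 89.7 in Indirubin-3, with 1.17 to 3.65 in Control and 11.5 to 17.4 in DSS. Ly6g and Ltf were at 0 in all Control and DSS libraries. What part these differences have in the values of the serpins was not tested. In bulk tissue, fewer hepatocytes and less RNA per hepatocyte cannot be told apart.

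Alpha-1-antitrypsin transcripts as a whole were lower in Indirubin than in Control. The 5 Serpina1 genes together had 4445, 4280 and 3246 normalized CPM in Control, 1739, 2974 and 3856 in DSS, and 2133, 1402 and 1165 in Indirubin. All 3 Indirubin libraries lay below all 3 Control libraries, while DSS overlapped both. The fitted log2 difference of the sum was -1.32 (SE 0.45) for Indirubin against Control, a 2.49-fold lower level, -0.86 (SE 0.54) for Indirubin against DSS and -0.45 (SE 0.38) for DSS against Control. Without the TMM factors the Control differences were smaller or turned, at -0.44 for Indirubin against Control and 0.26 for DSS against Control, and the median of all genes moved in these comparisons from 0.13 to 1.10 and from 0.01 to 0.70. As a share of nuclear counts, the sum was 2.59% ± 0.33 in Control, 1.81% ± 0.40 in DSS and 1.11% ± 0.48 in Indirubin (mean ± SD, n = 3). Among the 8 hepatocyte markers, Apoa1 (1731 to 2634 normalized CPM in Control and 863 to 907 in Indirubin) and Ttr (617 to 1108 and 162 to 478) were also lower in Indirubin than in Control without overlap. Trf (2546 to 3003 in Control) and Fgb (548 to 883 in Control) were instead higher in Indirubin-2 and Indirubin-3, at 6672 and 7210 for Trf and 1621 and 2567 for Fgb. Alb, at 7501 to 12802 in Control, was lower in Indirubin-2 and Indirubin-3, at 4509 and 5571. In Indirubin-1 it was within the Control range, at 7760. The part of these differences in the Serpina1 sum was not tested.

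Serpina1e gave the widest differences from Control within the alpha-1-antitrypsin family. Its level was 1866, 1851 and 1479 normalized CPM in Control, 210.3, 1146 and 757 in DSS, and 498, 175 and 394 in Indirubin. All DSS and all Indirubin libraries were below the lowest Control library, and DSS and Indirubin overlapped each other. The log2 difference was -1.26 (SE 0.49) for DSS against Control, -2.25 (SE 0.48) for Indirubin against Control, which is 4.77-fold, and -0.98 (SE 0.62) for Indirubin against DSS. Scaled by library size alone, the values against Control were -0.65 for DSS and -1.43 for Indirubin. Leaving out DSS-1, the lowest DSS library, gave -0.83 for DSS against Control, and leaving out DSS-2 gave -1.84.

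Serpina1b, the copy with the most counts after Serpina1e in Control, showed the smallest difference of these genes between Indirubin and Control. Its level was 1022, 1019 and 708 normalized CPM in Control, 649, 828 and 1364 in DSS, and 785, 617 and 367 in Indirubin. The groups overlapped in all 3 comparisons, with a log2 difference of 0.08 (SE 0.35) for DSS against Control, -0.67 (SE 0.50) for Indirubin against DSS and -0.60 (SE 0.43) for Indirubin against Control. Without the TMM factors these were 0.82, -0.52 and 0.30, so the direction against Control turned for Indirubin. Indirubin-1 was the library that overlapped, since the other 2 Indirubin libraries lay below all Control and all DSS libraries.

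Serpina1c and Serpina1a were lower in every Indirubin library than in any DSS or Control library. Serpina1c was at 331, 329.8 and 266 normalized CPM in Control, 255, 224 and 419 in DSS, and 167, 119.96 and 66.1 in Indirubin. Its log2 difference was -1.34 (SE 0.47) for Indirubin against DSS and -1.36 (SE 0.42) for Indirubin against Control, with -0.02 (SE 0.31) for DSS against Control. Serpina1a was at 604, 593 and 425 in Control, 391, 468 and 712 in DSS, and 367, 295 and 179 in Indirubin. Its log2 difference was -0.89 (SE 0.47), -0.91 (SE 0.41) and -0.01 (SE 0.32) in the same order. Scaled by library size alone, Indirubin against Control was at -0.48 for Serpina1c and -0.0028 for Serpina1a, and DSS against Control, near 0 for both with the TMM factors, at 0.74 and 0.71. These are also the 2 copies with the smallest share of sequence of their own.

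Serpina1d was lower in Indirubin than in Control without overlap, and overlapped in the other 2 comparisons. It had 623, 487 and 369 normalized CPM in Control, 233, 308 and 603 in DSS, and 315, 195 and 158 in Indirubin. The log2 difference was -1.11 (SE 0.42) for Indirubin against Control, -0.76 (SE 0.49) for Indirubin against DSS and -0.35 (SE 0.37) for DSS against Control. Without DSS-3 the last 2 values were -0.28 and -0.79, without DSS-1 they were -1.12 and -0.11, and without Indirubin-1 the value against DSS was -1.20. Scaled by library size alone, Serpina1d was at 0.42 for DSS against Control, where its direction turned, and at -0.26 for Indirubin against Control. Leaving out 1 library at a time, the value for Indirubin against DSS ran from -1.23 to -0.61 for Serpina1a, from -1.04 to -0.32 for Serpina1b, from -1.77 to -1.02 for Serpina1c, from -1.52 to -0.52 for Serpina1e and from -1.25 to -0.59 for the sum.

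The make-up of the Serpina1 counts is a ratio within a library, so it does not depend on library size. Serpina1e made up 42.0%, 43.2% and 45.6% of the Serpina1 counts in Control, 12.1%, 38.6% and 19.6% in DSS, and 23.4%, 12.5% and 33.8% in Indirubin. Every treated library was below every Control library. The Wilson 95% interval of each share reached at most 0.875 percentage points to either side, which covers counting error only. The share of Serpina1b was 22.9% ± 1.01 in Control, 33.5% ± 4.997 in DSS and 37.4% ± 6.27 in Indirubin (mean ± SD, n = 3).

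Set against Serpina1b in the same library, the other copies differed in which groups stood apart. The count of Serpina1c was 0.324, 0.324 and 0.375 times that of Serpina1b in Control, 0.393, 0.270 and 0.308 times in DSS, and 0.212, 0.194 and 0.180 times in Indirubin. The Indirubin ratios lay below all others, Indirubin-1 included. Serpina1a was at 0.591, 0.582 and 0.600 times Serpina1b in Control, 0.603, 0.565 and 0.522 times in DSS, and 0.468, 0.479 and 0.489 times in Indirubin, again without overlap. Serpina1d was at 0.610, 0.478 and 0.521 times in Control, 0.359, 0.371 and 0.442 times in DSS, and 0.402, 0.316 and 0.431 times in Indirubin, with both treated groups below Control. Serpina1e was at 1.83, 1.82 and 2.09 times in Control, 0.324, 1.38 and 0.555 times in DSS, and 0.635, 0.283 and 1.07 times in Indirubin.

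**Figure D1:**
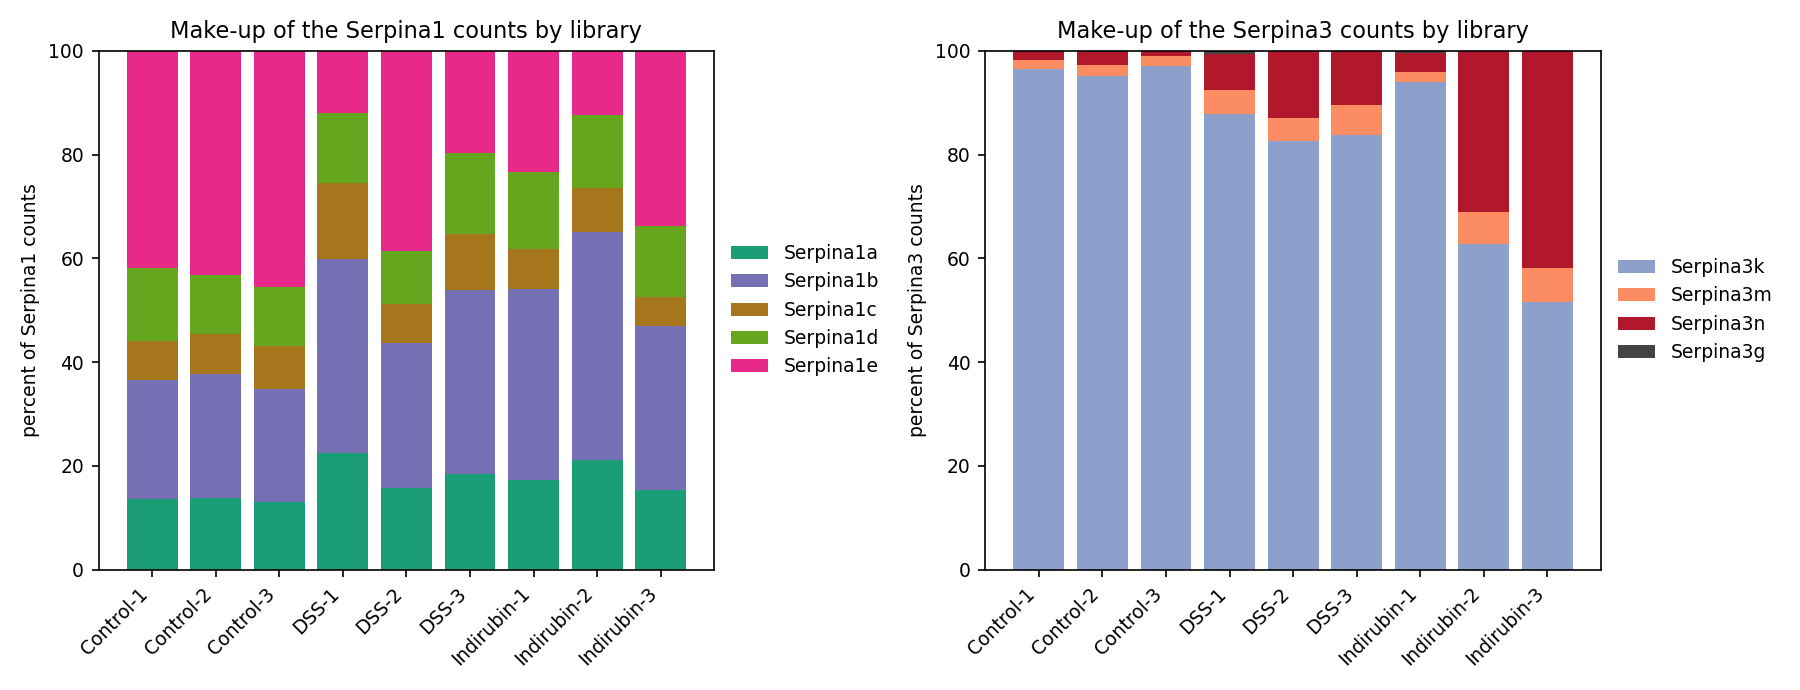
Stacked bars give the percent of the summed Serpina1 counts (left) and Serpina3 counts (right) that each gene took in each of the 9 libraries. Serpina1e took 42.0% to 45.6% in Control and at most 38.6% in the other libraries, and Serpina3n took 31.1% and 41.8% in Indirubin-2 and Indirubin-3 against 0.902% to 2.53% in Control.

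Across the 9 libraries, the log2 levels of Serpina1a, Serpina1b, Serpina1c and Serpina1d moved together, with Pearson r from 0.887 to 0.973 over their 6 pairs, and Serpina1e followed them less closely, with r from 0.554 to 0.767. The points share their libraries, depth and scaling, and the Serpina1 genes, Serpina1e included, also share sequence, so these are descriptions.

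Serpina3n, the acute-phase member, had the widest range of the genes with counts in every library, 101-fold from lowest to highest. Its counts were 171, 279 and 47 in Control, 439, 1041 and 2335 in DSS, and 246, 6892 and 13528 in Indirubin, which is 33.2, 49.1 and 11.4 normalized CPM in Control, 51.9, 184 and 213 in DSS, and 44.97, 557 and 1156 in Indirubin. All DSS libraries were above all Control libraries. Indirubin-2 and Indirubin-3 were above every DSS and Control library, whereas Indirubin-1 lay within the Control range. The log2 difference was 2.30 (SE 0.53) for DSS against Control, a 4.93-fold higher level, 1.98 (SE 0.87) for Indirubin against DSS and 4.28 (SE 0.95) for Indirubin against Control. Without Indirubin-1 the last 2 values were 2.42 and 4.68. Leaving out Indirubin-3, the highest library, gave 1.03 and 3.34 instead.

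Serpina3m, its neighbour in the cluster, followed Serpina3n at a lower amplitude, with Pearson r of 0.944 between their log2 levels over the 9 libraries. It had 31.5, 39.2 and 24.6 normalized CPM in Control, 35.8, 63.5 and 117 in DSS, and 23.0, 108 and 179 in Indirubin. The lowest DSS library and Indirubin-1 lay within or below the Control range, so the groups overlapped. The log2 difference was 1.21 (SE 0.39) for DSS against Control, 0.53 (SE 0.64) for Indirubin against DSS and 1.75 (SE 0.59) for Indirubin against Control. Without DSS-3 the first was 0.72, and without Indirubin-3 the second was -0.12 and the third 1.11.

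Serpina3k, the most abundant member of its group, differed by less than the spread between mice. It had 1814, 1846 and 1229 normalized CPM in Control, 671, 1179 and 1718 in DSS, and 1114, 1127 and 1428 in Indirubin, and the groups overlapped in all 3 comparisons. The log2 difference was -0.42 (SE 0.38) for DSS against Control, 0.05 (SE 0.51) for Indirubin against DSS and -0.37 (SE 0.41) for Indirubin against Control. With scaling by library size alone it was 0.30 for DSS against Control and 0.61 for Indirubin against Control. Leaving out 1 library at a time, it ran from -0.74 to -0.15 for DSS against Control. It ran from -0.34 to 0.40 for Indirubin against DSS, where its direction turned, and from -0.57 to -0.31 for Indirubin against Control.

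The ratio of Serpina3n to Serpina3k within a library was 0.0183, 0.0266 and 0.00930 in Control, 0.0773, 0.156 and 0.124 in DSS, and 0.0404, 0.495 and 0.810 in Indirubin. By this measure, which needs no scaling, Indirubin-1 was above all Control libraries and below all DSS libraries. Serpina3n made up 1.73% ± 0.81 of the Serpina3 counts in Control, 10.02% ± 3.08 in DSS and 25.6% ± 19.6 in Indirubin (mean ± SD, n = 3), and Serpina3m made up 1.88% ± 0.18, 4.95% ± 0.68 and 4.81% ± 2.49. The Wilson 95% intervals of these shares reached at most 0.827 percentage points to either side.

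Serpina3g was near the limit of detection throughout. Its counts were 10, 24 and 7 in Control, 46, 0 and 21 in DSS, and 24, 17 and 15 in Indirubin, so the groups overlapped and a difference was not detectable at this depth. The fitted log2 values were -0.03 (SE 1.18) for DSS against Control, -0.09 (SE 1.21) for Indirubin against DSS and -0.16 (SE 0.84) for Indirubin against Control. With library size alone the values against Control were 0.66 for DSS and 0.55 for Indirubin. Leaving out 1 library at a time turned the direction in each comparison. The values then ran from -1.39 to 0.48, from -0.96 to 1.14 and from -1.06 to 0.33, in the order of the fitted values.

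Serpina4-ps1 was present in Control and low or not detected elsewhere. The pseudogene had 99, 166 and 81 counts in Control, 11, 1 and 5 in DSS, and 11, 0 and 0 in Indirubin, although nuclear counts were 569044 to 989212 in Control, 807612 to 2132208 in DSS and 701804 to 1910420 in Indirubin. That is 19.2, 29.2 and 19.7 normalized CPM in Control against 1.30, 0.177 and 0.455 in DSS and 2.01, 0 and 0 in Indirubin. A count of 0 allows up to 3 counts. No DSS or Indirubin library reached the Control range. The fitted log2 difference was -5.002 (SE 0.60) for DSS against Control and -5.48 (SE 1.06) for Indirubin against Control. The first was -5.94 without DSS-1 and -4.70 without DSS-2. The second value rests on few counts and was -10.5 without Indirubin-1, where both remaining libraries are at 0. Its counts were too low to be fitted in Indirubin against DSS.

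**Figure D2:**
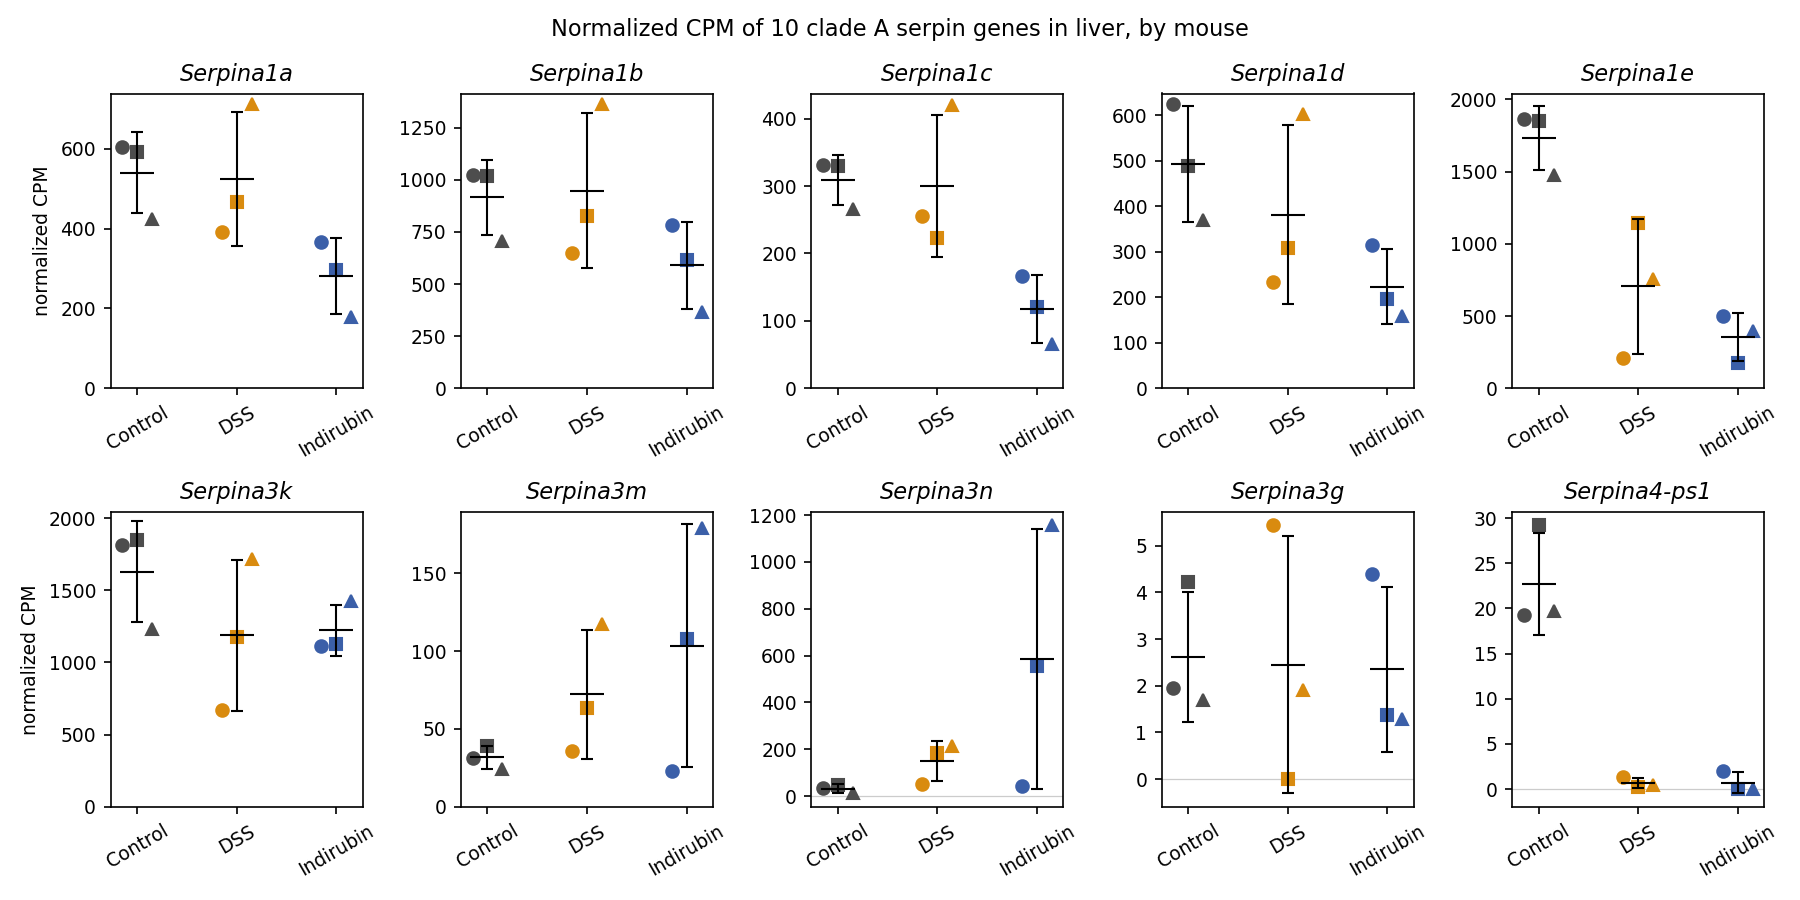
Each panel gives the normalized CPM of one gene on the y axis for the 3 mice of each group on the x axis. Circles, squares and triangles stand for replicates 1, 2 and 3, and lines with bars for the mean ± SD. Each panel has its own scale. Serpina1e and Serpina4-ps1 are higher in all Control mice than in all others, and Indirubin-1 (circle) is apart from the other Indirubin mice in Serpina3n and Serpina3m.

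Per kilobase of gene length, the order in Control was Serpina1e at 1071 ± 136 normalized CPM per kilobase, Serpina3k at 792 ± 169, Serpina1b at 379 ± 74.8, Serpina1d at 354 ± 91.2, Serpina1a at 295 ± 54.8 and Serpina1c at 227 ± 27.4 (mean ± SD, n = 3). Serpina3m at 18.5 ± 4.26, Serpina4-ps1 at 17.6 ± 4.37, Serpina3n at 15.1 ± 9.15 and Serpina3g at 1.25 ± 0.66 followed. The ranges of Serpina1b, Serpina1d and Serpina1a overlapped, those of Serpina1a and Serpina1c overlapped, as did those of Serpina3m, Serpina4-ps1 and Serpina3n, and those neighbours in the order did not differ beyond their spread. Length does not correct for reads shared between copies, and the Serpina1 genes with the smallest shares of sequence of their own, Serpina1a and Serpina1c, also stood lowest among the Serpina1 genes. In Indirubin the order was led by Serpina3k at 595 ± 86.4, and Serpina3n at 284 ± 269 came next on average, with 21.8, 270.1 and 560.1 in the single libraries.

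Of the 10 genes fitted in DSS against Control, 1 was higher without overlap between the groups (Serpina3n) and 2 were lower (Serpina1e and Serpina4-ps1), where 7.07% of all 7482 genes fitted were higher and 8.62% lower without overlap. In Indirubin against DSS, 9 genes were fitted and 2 were lower without overlap (Serpina1a and Serpina1c) and 0 higher, against 6.04% and 10.4% of 9117 genes. In Indirubin against Control, 5 of 10 were lower (Serpina1a, Serpina1c, Serpina1d, Serpina1e and Serpina4-ps1) and 0 higher, against 9.5% and 12% of 8059 genes. The median log2 difference over the fitted genes was -0.02, -0.67 and -0.76 in this order, beside 0.01, 0.15 and 0.13 over all genes. Because the genes were chosen with these results known, nothing is read from these shares. The comparisons with Control share the Control libraries, and those with DSS share the DSS libraries.

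Without Indirubin-1, Serpina3n was higher without overlap in Indirubin against DSS (18.4% of genes), and Serpina1a, Serpina1b, Serpina1c and Serpina1d were lower (11.5%). Against Control, Serpina3m and Serpina3n were then higher (20.2%), and 7 genes were lower (16%), namely all 5 Serpina1 genes, Serpina3g and Serpina4-ps1. This comparison without Indirubin-1 was chosen after its values were seen.

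**Figure D3:**
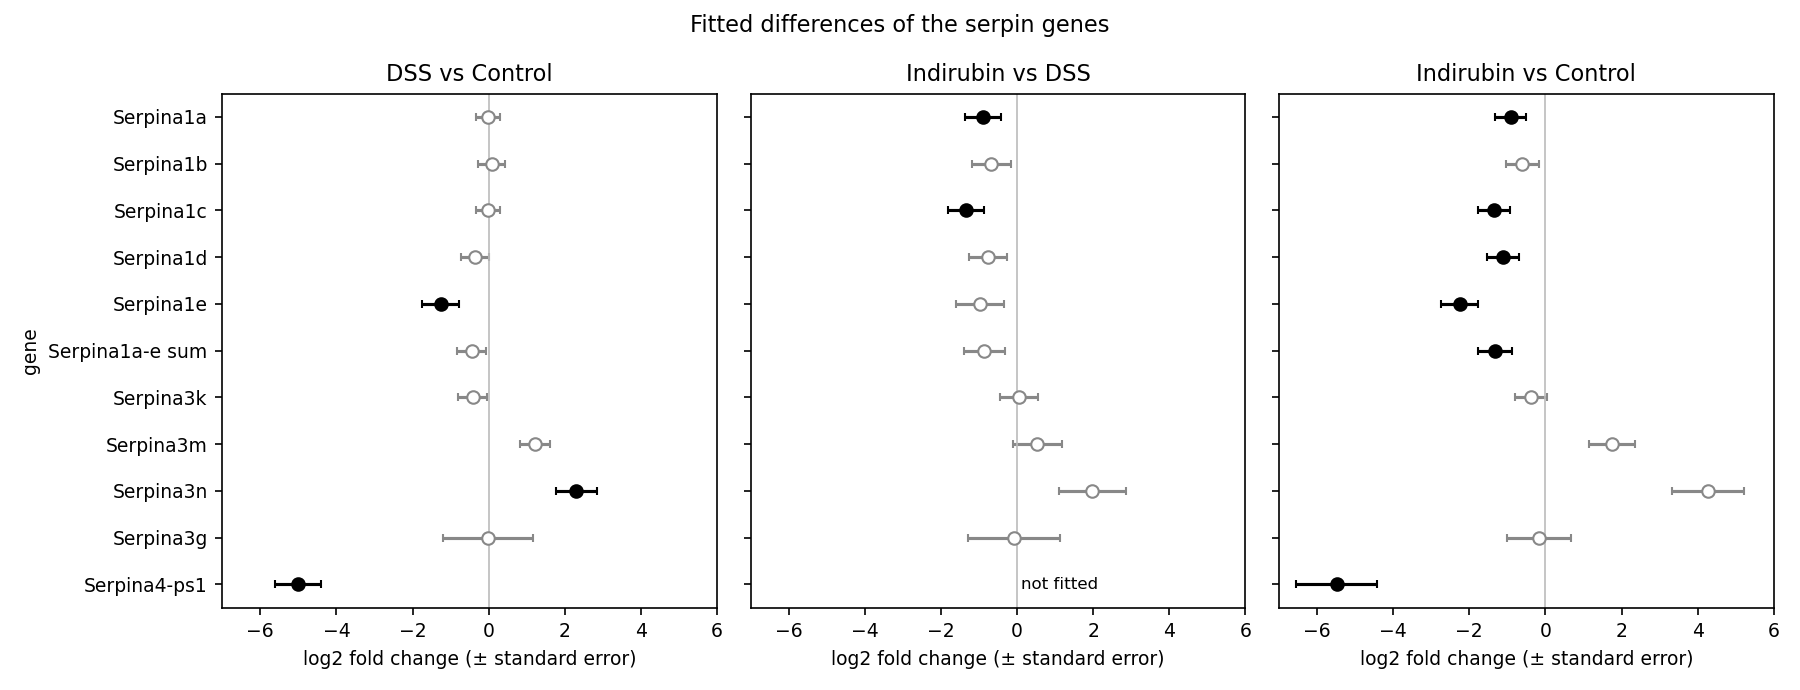
Points give the fitted log2 fold change and bars its standard error for each gene, and for the sum of the 5 Serpina1 genes, in the 3 comparisons. Filled black points mark genes whose groups did not overlap. In Indirubin vs Control the Serpina1 genes lie between -0.60 and -2.25, and Serpina3n lies at 4.28 with overlapping groups.

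Other liver genes were tested by the quasi-likelihood method of edgeR, and p was adjusted by Benjamini-Hochberg over all genes fitted. In DSS against Control 53 genes passed an adjusted p of 0.05, 0.214% of those fitted upward and 0.495% downward, and the shares with an unadjusted p under 0.05 were 3.48% upward and 4.05% downward. In Indirubin against DSS, 0 passed (smallest adjusted p = 0.223), with 4.45% upward and 3.22% downward before adjustment, and DESeq2's Wald test called 3 of the context genes in this comparison. In Indirubin against Control 19 passed, 0.062% upward and 0.174% downward, with 7.45% and 6.38% before adjustment. The acute-phase proteins, secreted by liver in inflammation, were the list with most calls. In DSS against Control 8 of 20 fitted rose, and 16 were higher at an unadjusted p under 0.05. The number that rose was 4 without Control-2, Control-3 or DSS-3, in one fit over all 9 libraries and with the replicate block, 5 without Control-1, 12 without DSS-1 and with DESeq2's Wald test, and 14 with no filter on low counts. Saa1, Saa2, Orm2 and the pentraxin Apcs passed in every alternative in which they were fitted. The median log2 difference of the list was 2.26, beside 0.01 over all genes. Saa1, a serum amyloid A gene carried on lipoprotein, had 9.52, 9.67 and 2.92 normalized CPM in Control, 270.2, 1939 and 4546 in DSS, and 9.69, 1827 and 2501 in Indirubin. Its log2 difference was 8.25 (SE 0.93, adjusted p = 0.00142) for DSS against Control. Orm2, an orosomucoid, rose by 7.74 (SE 0.97, adjusted p = 0.00216), and the haemoglobin-binding protein Hp by 2.60 (SE 0.50, adjusted p = 0.0321), a call that Hp kept in 7 of 14 alternatives (adjusted p up to 0.326). Indirubin-1 was within or near the Control range for Saa1, as it was for Serpina3n.

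In Indirubin against Control, 0 of the 20 acute-phase genes passed the adjusted threshold, while before adjustment 13 passed upward and 1 downward, with a median of 2.44. This 0 depended on 1 library and on the method, since 17 of 21 fitted rose without Indirubin-1, 12 of 20 with DESeq2's Wald test, 13 of 20 with library size alone, 14 of 21 with no filter, 6 in one fit over all 9 libraries, 1 with the replicate block, and 4 of the 14 fitted when a minimum of 10 counts was asked of each library. Saa1 was at 7.66 (adjusted p = 0.0549) and Orm2 at 5.97 (adjusted p = 0.0549). In Indirubin against DSS, 0 of 21 passed. Before adjustment 3 passed upward and 2 downward, and the median was -0.28. Among these, Hamp, which encodes the iron hormone hepcidin, was at -2.63 (SE 0.55, adjusted p = 0.352), Crp at -1.12 (adjusted p = 0.538), Saa3 at 2.83 (adjusted p = 0.587) and the endotoxin co-receptor Cd14 at 3.16 (adjusted p = 0.609). Serpina3n was at 1.98 (SE 0.87) in the same comparison, within the spread of the list, in which Il1rn was at 1.98, Steap4 at 1.42, Lcn2 at 1.41, Cp at 1.35, Lbp at 0.81, Hp at -0.25 and Saa2 at -0.61.

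**Figure D4:**
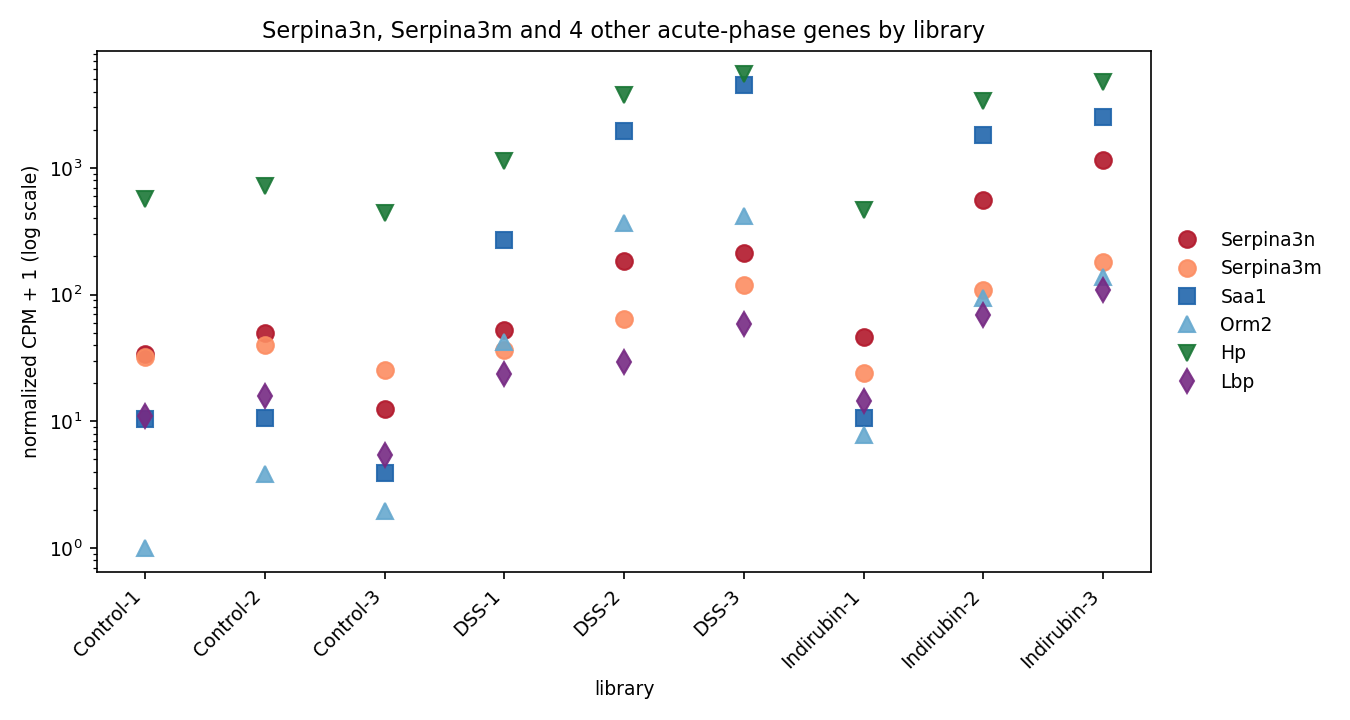
Points give normalized CPM + 1 on a log scale for Serpina3n, Serpina3m and 4 acute-phase genes in each of the 9 libraries. Orm2 is higher in DSS-2 and DSS-3 than in Indirubin-2 and Indirubin-3, whereas Serpina3n and Lbp are highest in the latter. All 6 genes are lower in Indirubin-1 than in any DSS library.

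Over the 9 libraries, the genes whose log2 level was most like that of Serpina3n, among 3067 genes that had 10 counts or more in all libraries, included Lbp (Pearson r = 0.974), Cp (0.965), Mat1a (0.961) and Mt1 (0.949). Lbp encodes the lipopolysaccharide-binding protein, Cp the copper carrier ceruloplasmin, Mat1a the enzyme that makes S-adenosylmethionine and Mt1 a metallothionein. Lbp had 10.1, 14.9 and 4.38 normalized CPM in Control, 22.5, 28.1 and 57.9 in DSS, and 13.5, 68.4 and 106.9 in Indirubin. Its Indirubin-2 and Indirubin-3 libraries were above all DSS libraries and Indirubin-1 was in the Control range. Cp had 164.3, 154.2 and 88.0 in Control, 121.1, 259 and 270.0 in DSS, and 119, 518 and 1014 in Indirubin. The genes most like the Serpina1 sum were Glyat (0.984), Coasy (0.984), C8b (0.973), Atp5c1 (0.968) and Slc22a18 (0.958), of which Glyat is a mitochondrial glycine acyltransferase and C8b a complement subunit. The points share libraries, depth and scaling, so these are descriptions.

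Genes that bear on acute-phase induction were set beside Serpina3n. Of 13 such genes, 0 of 10 fitted in DSS against Control passed even an unadjusted p of 0.05. In Indirubin against DSS, 0 of 13 passed the adjusted threshold, with 2 upward and 1 downward before adjustment, and in Indirubin against Control 0 of 10, with 4 upward and 1 downward. Fkbp5, a standard glucocorticoid-induced gene, had 1.36, 6.15 and 2.92 normalized CPM in Control, 1.77, 1.06 and 4.19 in DSS, and 2.56, 40.7 and 40.1 in Indirubin. Like Serpina3n, it was high in Indirubin-2 and Indirubin-3 and not in Indirubin-1. Its log2 difference was 3.54 (SE 0.85, adjusted p = 0.430) for Indirubin against DSS and 3.05 (SE 0.84, adjusted p = 0.137) for Indirubin against Control. Cebpb, a C/EBP factor of the acute phase, was at 1.45 (adjusted p = 0.618) and Lifr, a cytokine receptor subunit, at -1.26 (adjusted p = 0.512) for Indirubin against DSS. Against Control, Cebpd was at 2.79 (adjusted p = 0.188) and Lifr at -1.89 (adjusted p = 0.0857). None of these passed the adjusted threshold. Without Indirubin-1, 1 gene of the list rose against DSS, and 1 rose and 1 fell against Control.

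Of the other clade A serpins, 6 of 16 were fitted in each comparison and 0 passed the adjusted threshold, while DESeq2's Wald test called 1 upward in DSS against Control and 1 downward in Indirubin against Control, and 1 passed in each direction in both comparisons with Indirubin when Indirubin-1 was left out. Before adjustment 2 passed upward in DSS against Control, 2 downward in Indirubin against DSS and 3 downward in Indirubin against Control. Serpina7, the thyroxine-binding globulin, was at 2.12 (SE 0.56, adjusted p = 0.153) in DSS against Control and -2.15 (SE 0.69, adjusted p = 0.466) in Indirubin against DSS. Serpina10 was at 1.12 (adjusted p = 0.393) in the first comparison and Serpina11 at -1.66 (adjusted p = 0.500) in the second. Serpina6, the corticosteroid-binding globulin, had 25.3, 30.2 and 13.6 normalized CPM in Control, 10.6, 17.7 and 28.6 in DSS, and 13.5, 0.566 and 0.342 in Indirubin, so the 2 lowest libraries were Indirubin-2 and Indirubin-3. It was at -2.34 (SE 0.99, adjusted p = 0.314) in Indirubin against Control, where Serpina12, vaspin, was at -1.90 (adjusted p = 0.167).

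Among serpins of other clades, 0 of 10, 0 of 9 and 0 of 9 passed the adjusted threshold in DSS against Control, Indirubin against DSS and Indirubin against Control. At an unadjusted p under 0.05, 2 were higher in the first (Serpinb6a at 1.48, adjusted p = 0.361, and the C1 inhibitor Serping1 at 0.85, adjusted p = 0.622). In the second, 2 were lower, namely antithrombin Serpinc1 at -1.11 (adjusted p = 0.628) and Serpinf1 at -1.59 (adjusted p = 0.646). In the third, 3 were lower, among them heparin cofactor Serpind1 at -1.12 (adjusted p = 0.232) and Serpinf1 at -1.91 (adjusted p = 0.242). Without Indirubin-1, 1 passed in each direction in the second and in the third.

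Among 16 other plasma protease inhibitors fitted, 1 passed the adjusted threshold, upward, in DSS against Control and 0 passed in the comparisons with Indirubin, where before adjustment 1 passed downward against DSS and 1 upward against Control. The one that passed was Itih4, an inter-alpha-trypsin inhibitor chain, with 285, 318 and 178 normalized CPM in Control, 489.6, 894 and 1325 in DSS, and 205, 455 and 751 in Indirubin, and a log2 difference of 1.83 (SE 0.39, adjusted p = 0.0494). This call was at the edge of the threshold. It was kept in 5 of 14 alternatives and lost when any library but DSS-1 was left out, with adjusted p up to 0.447 and a log2 difference from 1.49 to 2.55. Itih3 was at 1.57 (adjusted p = 0.103) and the murinoglobulin Mug1 at -0.96 (adjusted p = 0.497) in the same comparison. Itih3 was at 1.34 (adjusted p = 0.289) in Indirubin against Control, and Ambp, the precursor of bikunin, at -1.43 (adjusted p = 0.604) in Indirubin against DSS.

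Proteases were listed as possible partners of the serpins. Of 10 neutrophil and mast cell proteases only Prtn3, proteinase 3, was fitted in DSS against Control, where it rose by 4.48 (SE 0.90, adjusted p = 0.0395). The call was lost when any 1 library was left out (adjusted p = 0.0714 to 0.230 over the alternatives that lost it). Its counts were 3, 2 and 0 in Control, 52, 42 and 95 in DSS, and 0, 80 and 20 in Indirubin. Elane, neutrophil elastase and the classic target of alpha-1-antitrypsin, had 0 counts in all Control libraries, 0, 0 and 7 in DSS, and 4, 16 and 3 in Indirubin. Of 11 pancreatic serine proteases, Ctrb1, a chymotrypsinogen, had 6, 0 and 20 counts in Control, 0, 0 and 6 in DSS, and 15, 1959 and 2817 in Indirubin, and it was high in the same 2 libraries as the acinar markers. It was at 9.16 (SE 1.52, adjusted p = 0.223) in Indirubin against DSS and at 6.16 (adjusted p = 0.0907) in Indirubin against Control, and the elastase Cela1 was at 4.77 (adjusted p = 0.355) and 2.95 (adjusted p = 0.120). Without Indirubin-1, 8 of 9 pancreatic proteases fitted rose in both comparisons.

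Genes that fold and export secreted proteins such as alpha-1-antitrypsin were fitted in all 3 comparisons, and 0 of 16 passed the adjusted threshold in any. In DSS against Control, 3 were higher at an unadjusted p under 0.05, with the chaperones Hsp90b1 at 0.84 (adjusted p = 0.435) and Hspa5 at 0.87 (adjusted p = 0.459). In Indirubin against DSS, 6 were lower, with a list median of -0.84 beside 0.15 over all genes. Syvn1, a ubiquitin ligase of the endoplasmic reticulum, had 10.7, 9.56 and 6.65 normalized CPM in DSS and 2.38, 2.43 and 2.82 in Indirubin, and was at -1.80 (SE 0.52, adjusted p = 0.436). The export receptor Surf4 was at -1.23 (SE 0.39, adjusted p = 0.456), with 31.2, 29.7 and 35.5 in DSS and 11.1, 11.7 and 18.0 in Indirubin. The groups did not overlap for either gene, Indirubin-1 included. In Indirubin against Control, 2 passed downward before adjustment. Sel1l was at -0.996 (adjusted p = 0.275) and calnexin, Canx, at -0.77 (adjusted p = 0.353).

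Hepatocyte transcription factors had 0 of 11, 0 of 11 and 0 of 12 genes past the adjusted threshold and 0, 0 and 1 before adjustment. Tef was at 1.35 (adjusted p = 0.313) in Indirubin against Control. The growth hormone axis, which sets the sex-dependent level of several mouse liver genes, had 0 of 6, 0 of 7 and 0 of 7 past the adjusted threshold and 1, 1 and 2 before adjustment. Socs2, a growth hormone target, was at -2.16 (adjusted p = 0.436) in DSS against Control and 1.78 (adjusted p = 0.630) in Indirubin against DSS. Igf1 was at -1.31 (adjusted p = 0.151) and Igfals at -1.26 (adjusted p = 0.254) in Indirubin against Control. Without Indirubin-1, 1 gene of the axis fell against DSS and 2 against Control.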

How the data were processed

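Liver RNA (400 ng per library) was sequenced on a DNBSEQ platform. The authors deposited one table of raw counts per gene for all 9 libraries, with gene length and coordinates (GRCm39 per the submitters' processing notes). The aligner, counter, strandedness and read length are not given in the sources used here. Lists of genes from the authors' own comparisons were also deposited and were not used. From the counts, groups were compared in pairs (6 libraries each) with edgeR 4.0.16 in R 4.3.3, using TMM factors, filterByExpr (minimum count 10, minimum total 15) and the quasi-likelihood test with Benjamini-Hochberg adjustment. Standard errors came from the fold change and its F value. Displayed levels used TMM factors over all 9 libraries, and correlations used log2 CPM with an offset of 1. The sum of the Serpina1 rows replaced them in a second table. Nothing says that replicates were separate cages or days, so p-values measure the spread between these samples. Named context genes were, per list and comparison, up to 2 each way with the smallest p among those under 0.05, and the 5 most alike genes for Serpina3n and the Serpina1 sum, and a few others were named because a result turned on them. Some genes and sequence motifs that these rules named are not reported here. The members and lists were chosen with earlier results of these data known. Alternatives were DESeq2 1.42.0, other scalings and filters, one fit over 9 libraries, a replicate block and leaving out each library. Only the edgeR fit of DSS against Control was tested on simulated data. Sequences were compared with Biopython 1.88.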

Additional observations from a re-analysis of the deposited data

How the results depend on the processing

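The fold change of Serpina3n kept its direction under every alternative run. It ran from 1.87 to 2.97 in DSS against Control, from 1.03 to 2.45 in Indirubin against DSS and from 3.34 to 5.42 in Indirubin against Control. Scaling by library size alone moved 19 of 35 fold changes, among them the Serpina1 sum, to 0.26 in DSS against Control and to -0.44 in Indirubin against Control, and it moved the median of all genes to 0.70, 0.43 and 1.10 in DSS against Control, Indirubin against DSS and Indirubin against Control. This setting has no correction for the share of counts that mitochondrial genes take. DESeq2 size factors, leaving out mitochondrial genes, no filter, a filter of 10 counts in every library, one fit over all 9 libraries, the replicate block and DESeq2's Wald test moved 0 of their fold changes by more than the spread between replicates. Leaving out single libraries moved 9 of 210. Over them the Serpina1 sum ran from -1.73 (without Indirubin-1) to -1.15 in Indirubin against Control.

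The number of context genes at an adjusted p under 0.05 was 10 in DSS against Control, 0 in Indirubin against DSS and 0 in Indirubin against Control. With no filter it was 19, 18 and 32, with all 9 libraries in one fit 4, 1 and 8, and with DESeq2's Wald test 16, 3 and 18. With library size alone it was 1 in Indirubin against DSS and 18 in Indirubin against Control, and with at least 10 counts in every library 6 in the latter. The cause was not tested. Leaving out one library gave 4 to 14 in DSS against Control (4 without Control-2, Control-3 or DSS-3, 5 without Control-1, 6 without DSS-2, 14 without DSS-1). It gave 0 to 14 in Indirubin against DSS and 0 to 34 in Indirubin against Control, where 14 and 34 came from leaving out Indirubin-1 and every other omission gave 0. The numbers of the replicates did not pair the mice, with correlations of same-numbered deviations from -0.04 to 0.04 and 5 of 9 same-numbered pairs closest to their own number (0 of 3 in DSS against Control, 3 of 3 in Indirubin against DSS and 2 of 3 in Indirubin against Control), and the replicate block gave 4, 1 and 1 context genes. The number of the 10 serpin genes without overlap changed when Indirubin-1 was left out, from 0 to 1 higher and from 2 to 4 lower against DSS, and from 0 to 2 higher and from 5 to 7 lower against Control.

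Depth on nuclear genes limits the sparse genes. With 0 to 46 counts per library for Serpina3g and 0 to 11 for Serpina4-ps1 outside Control, small differences could not be seen, and reads shared between Serpina1 copies limit their single values.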

Other observations

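Serpina3i, a further Serpina3 copy in the same cluster, had 0 counts in all Control and DSS libraries and 5, 33 and 157 counts in Indirubin-1, Indirubin-2 and Indirubin-3. Of its 100-base stretches, 97.8% occur in no other Serpina gene, and Serpina3g shares 36 stretches with it. Serpina3f had 0, 24 and 16 counts in Control, 32, 10 and 1 in DSS, and 18, 43 and 96 in Indirubin. The value of Serpina3i was noticed after the data were seen, and under the filter used its counts were too low for it to be fitted in any of the 3 comparisons.

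Among the other cell type markers, the summed level of 8 Kupffer cell and macrophage markers was 95.4 to 155 normalized CPM in Control, 135 to 153 in DSS and 154 to 223 in Indirubin. The summed level of 6 endothelial markers was 25.3 to 51.2, 20.4 to 32.0 and 41.5 to 53.3, and that of 6 stellate cell markers 93.9 to 160.2, 55.4 to 91.2 and 81.7 to 149. Lymphocyte markers summed to 0.973 to 5.27, 1.91 to 10.4 and 1.78 to 7.86, and cholangiocyte markers to 0.729 to 1.55, 1.42 to 3.78 and 3.32 to 5.64. Hepatocyte markers summed to 13332 to 21081, 12108 to 26630 and 12607 to 16802. Within that sum, Alb, Apoa1 and Ttr were lower, and Trf and Fgb higher, in Indirubin-2 and Indirubin-3 than in Control.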
